A study of Bos taurus with 24 samples.

Results

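Toll-like receptors TLR2 and TLR4 and the inflammatory signals IL1B, CXCL8 and TNF were followed across liver and mammary biopsies of late-gestation dairy cows. These 5 genes were taken by Ensembl identifier (TLR2, ENSBTAG00000008008; TLR4, ENSBTAG00000006240; IL1B, ENSBTAG00000001321; CXCL8, ENSBTAG00000019716; TNF, ENSBTAG00000025471) from the 27607 gene identifiers in the deposited raw count tables. The symbols were supplied with the identifiers, and no annotation used here checks that pairing.

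The biopsies were taken from Holstein cows (a dairy breed) that had calved more than once and were in the dry period, with milking stopped 60 d before expected calving. All cows were housed in 1 barn from 35 d before expected calving under 16 h of light at 150 lx and 8 h of dark, and both tissues were biopsied at 21 d before expected calving. Controls were kept on an unchanging light-dark cycle. In the phase shift group the cycle was advanced by 6 h every 3 d over 2 weeks, at least 5 times. Each treatment had its own partition, so effects of partition and treatment cannot be told apart. The labels give neither genotype nor age of the cows, nor the hour of biopsy. Each tissue had 6 control and 6 phase shift libraries, each from a separate cow, and 11 cows gave both tissues.

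TLR2 and TLR4 are membrane receptors of innate immunity. TLR2 recognises bacterial lipoproteins, and TLR4 recognises lipopolysaccharide of Gram-negative bacteria together with its partners CD14 and MD-2. Both signal through MYD88 to the transcription factor NF-κB, whose targets include the genes for the cytokines IL-1β and TNF and for CXCL8, the chemokine that draws neutrophils out of the blood. In the udder this pathway is known for its part in mastitis, and in the liver resident macrophages use it to sense bacterial products arriving in portal blood.

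Liver libraries held 7.68 to 26.9 M counts (M, mega) and mammary libraries 5.05 to 13.1 M. Liver of phase shift cow 22 and mammary of phase shift cow 21 and control cow 26 stand apart from the other libraries of their tissue. Their median rank correlation with the other libraries was 0.942 in the liver library and 0.923 to 0.935 in the mammary libraries, against 0.966 to 0.969 and 0.964 to 0.971 in the rest. The share of counts in the 10 most abundant genes was 16.1% in that liver library, against 19.8 to 22.5% in the other livers. It was 25.0 to 26.2% in the mammary libraries 21PS and 26C, against 9.19 to 16.4% in the other 10. Levels are given below as CPM, the count divided by the library total in mega counts. Markers of hepatocytes, mammary epithelium or immune cells were not analysed here, because no table used here pairs their names with the identifiers, so the tissue labels were not checked against markers. In bulk tissue, fewer cells of a type and less RNA per cell cannot be told apart.

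The 5 genes divided between the tissues. TLR4 and TNF were higher in the mammary gland, IL1B was far higher in liver, TLR2 was not called between tissues in the edgeR test, and CXCL8 was near the limit of detection in both. None of the 5 differed detectably between phase shift and control cows in either tissue.

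TLR4 was the receptor with the clearest tissue difference. In liver it lay at 8.56 to 17.2 CPM in control cows (median 13.2) and at 10.5 to 19.5 CPM in phase shift cows (median 14.5). In mammary it lay at 47.4 to 119 CPM in control cows (median 111) and at 61.1 to 116 CPM in phase shift cows (median 94.1). All 12 mammary libraries were above all 12 liver libraries. The tissue means were 14.0 CPM (SD 3.14, n = 12) in liver and 96.9 CPM (SD 22.5, n = 12) in mammary, a ratio of 6.93.

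TLR2 varied much more in the mammary gland than in liver. Liver levels were 7.92 to 13.0 CPM in control cows (median 10.2) and 9.77 to 13.5 CPM in phase shift cows (median 11.2). Mammary levels were 4.52 to 58.5 CPM in control cows (median 39.5) and 11.3 to 46.4 CPM in phase shift cows (median 19.4). Of the 12 mammary libraries 10 lay above every liver library, phase shift cow 21 lay within the liver range and control cow 26 lay below it. The mammary mean was 29.4 CPM (SD 16.6, n = 12) against 10.9 CPM in liver (SD 1.89, n = 12).

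TNF, a cytokine that activates endothelium and macrophages, was higher in mammary, as TLR4 was. Its liver levels were 2.19 to 4.03 CPM in control cows (median 3.20) and 1.90 to 5.60 CPM in phase shift cows (median 4.11). Mammary levels were 2.22 to 16.8 CPM in control cows (median 12.6) and 5.83 to 24.9 CPM in phase shift cows (median 12.5). All mammary libraries except that of control cow 26, 11 of 12, lay above every liver library. Means were 3.53 CPM in liver (SD 1.06, n = 12) and 12.4 CPM in mammary (SD 5.96, n = 12).

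IL1B, the precursor of a cytokine that is cleaved before it is released, had the opposite distribution. In liver it lay at 4.40 to 8.59 CPM in control cows (median 5.79) and at 3.69 to 14.2 CPM in phase shift cows (median 5.42). In mammary its raw counts were 3 to 9 in control cows and 5 to 14 in phase shift cows, or 0.306 to 1.49 CPM and 0.570 to 1.44 CPM. All 12 mammary libraries were below all 12 liver libraries. The mean was 6.80 CPM in liver (SD 3.11, n = 12) and 0.918 CPM in mammary (SD 0.406, n = 12), a ratio of 7.41 in favour of liver.

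CXCL8 was read from a handful of counts per library. Raw counts were 5 to 11 in control livers (median 7.5), 3 to 14 in phase shift livers (median 6.5), 0 to 6 in control mammary libraries (median 2.5) and 0 to 5 in phase shift mammary libraries (median 2.5). Mammary counts of 0 came from control cows 19 and 26 and phase shift cow 24, where 3 counts would correspond to 0.445, 0.230 and 0.508 CPM. Summed over a tissue, the 89 liver counts gave 0.685 CPM (95% exact Poisson interval 0.550 to 0.843) and the 30 mammary counts gave 0.315 CPM (0.212 to 0.449). These intervals and limits cover counting error only. Liver and mammary libraries overlapped, although 6 of 12 mammary libraries lay below every liver library.

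**Figure D1:**
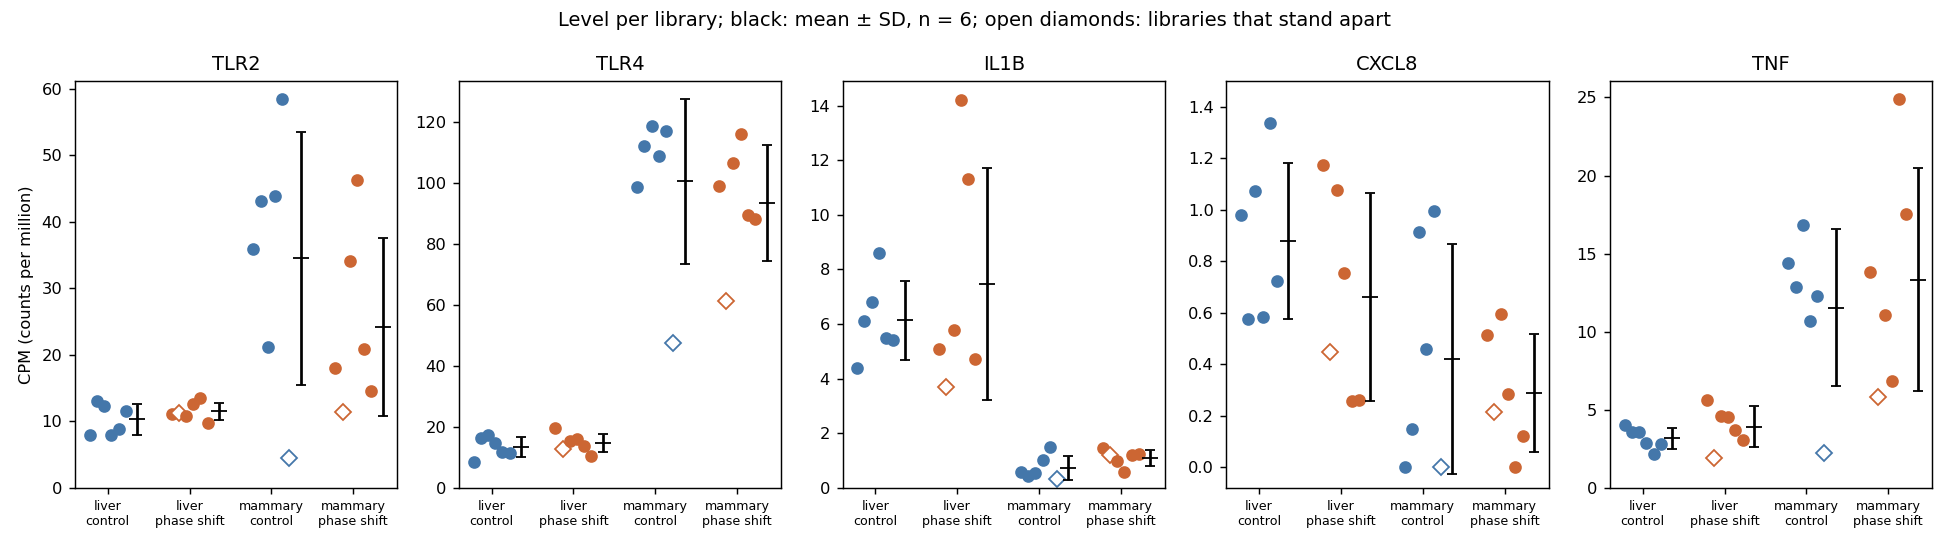
CPM of each gene by tissue and treatment, 1 point per library, with the group mean and SD (n = 6) in black. Open diamonds are the libraries that stand apart (liver 22PS, mammary 21PS and 26C). TLR4 is higher in all 12 mammary libraries than in any liver, and IL1B lower, while control and phase shift points overlap in every panel.

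The order of the 4 groups by mean CPM was divided by tissue for each of the genes. For TLR4 it ran from control liver (13.3, SD 3.33) and phase shift liver (14.7, SD 3.09) to phase shift mammary (93.3, SD 19.0) and control mammary (100.4, SD 26.9). For TLR2 it ran from control liver (10.3, SD 2.29) and phase shift liver (11.5, SD 1.32) to phase shift mammary (24.2, SD 13.4) and control mammary (34.5, SD 19.1). TNF ran from control liver (3.16, SD 0.679) and phase shift liver (3.90, SD 1.30) to control mammary (11.5, SD 5.02) and phase shift mammary (13.3, SD 7.14). IL1B ran from control mammary (0.736, SD 0.443) and phase shift mammary (1.10, SD 0.296) to control liver (6.13, SD 1.44) and phase shift liver (7.46, SD 4.26). In each of these orders the treatment groups of a tissue were neighbours whose ranges overlapped. CXCL8 ran from phase shift mammary (0.289, SD 0.229) through control mammary (0.419, SD 0.448) and phase shift liver (0.661, SD 0.403) to control liver (0.879, SD 0.304). Every neighbouring pair of groups overlapped for CXCL8, and also for TLR2 and TNF.

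The size of a tissue difference depends on how liver and mammary libraries are scaled to each other. Scaling by library total alone put the median of all genes tested 1.08 higher in mammary on the log2 scale, and trimmed-mean (TMM) scaling put it 0.078 higher. The edgeR quasi-likelihood test used TMM scaling, so its differences are close to differences from the typical gene. In that test 72.8% of 16656 genes passed an adjusted p of 0.05 between tissues, 38.9% higher in mammary and 33.9% lower. With scaling by library total alone, 12182 genes passed higher and 2484 lower, in place of 6485 and 5647.

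TLR4 was higher in mammary by 1.79 on the log2 scale (SE 0.12, edgeR adjusted p = 4.75e-12), a 3.46-fold difference with a 95% confidence interval of 2.89 to 4.13. TNF was higher by 0.76 (SE 0.22, edgeR adjusted p = 0.00373), or 1.69-fold with an interval of 1.23 to 2.33. IL1B was lower, with a log2 difference of -3.88 (SE 0.26, edgeR adjusted p = 1.73e-12), a level 14.7-fold higher in liver. With mammary counts of 3 to 14, IL1B passed the low-count filter of this fit only through its liver counts. Its place among the genes tested is therefore not independent of that filter. In the fit without the filter its log2 difference was -3.87 (SE 0.26, edgeR adjusted p = 9.13e-13). TLR2 was not called, with a log2 difference of 0.40 (SE 0.26, edgeR adjusted p = 0.169, 95% confidence interval -0.14 to 0.93). Apart from IL1B, 2 of the 3 genes tested were called, and most of all genes were too.

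The TLR2 call rested on single libraries and on the scaling. Without mammary control cow 26 the log2 difference was 0.51 (edgeR adjusted p = 0.0332), and without all 3 libraries that stand apart it was 0.55 (edgeR adjusted p = 0.0255). With scaling by library total alone it was 1.41 (edgeR adjusted p = 4.62e-05). CXCL8 was left out of this fit by the low-count filter. In the fit without that filter its log2 difference was -2.09 (SE 0.50, edgeR adjusted p = 0.000851), lower in mammary. Groups that did not overlap between tissues, in CPM, were seen for 32.6% of genes tested in favour of mammary, among them TLR4. They were seen for 8.60% in favour of liver, among them IL1B. As IL1B is among the genes tested only through its liver counts, its place there is not independent of the filter.

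Tissue differences were also taken within the 11 cows that gave both tissues. The share of all genes with as many cows on 1 side was not counted on either scale used below. The counts of cows are therefore not known to be particular to these genes. Over all libraries, 32.6% of genes tested were higher in every mammary library and 8.60% lower. On log2 CPM from library totals, mammary minus liver, TLR4 was 2.82 (SD 0.422) and IL1B -2.58 (SD 0.730), with 11 of 11 cows on 1 side for each (exact two-sided sign-flip permutation p = 0.000977, the smallest that 11 cows allow). TNF was higher in mammary in 10 of 11 cows, by 1.70 (SD 0.880, exact permutation p = 0.00195). TLR2 was higher in 10 of 11, by 1.28 (SD 1.15, exact permutation p = 0.00781). CXCL8 was lower in 10 of 11, with a mean of -1.02 (SD 0.927, exact permutation p = 0.00391). However, 3 counts or fewer stood behind most of these mammary values, and counts of 0 take their log2 value from the prior count added.

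TMM scaling, tried within cows after seeing the data, moved these values. TLR4 was higher in mammary in 11 of 11 cows by a mean of 1.81 (SD 0.381), IL1B was lower in 11 of 11 with a mean of -3.46 (SD 0.643), and CXCL8 was lower in 11 of 11 with a mean of -1.65 (SD 0.760; exact permutation p = 0.000977 for each). The CXCL8 values rest on the same low mammary counts. In phase shift cow 22 its CPM was higher in mammary (0.594) than in liver (0.447), so its direction there depended on the scaling. TNF was higher in 9 of 11 cows, by a mean of 0.72 (SD 0.697, exact permutation p = 0.0117). The exceptions were control cow 26, whose mammary library stands apart, and phase shift cow 23. TLR2 was higher in mammary in 6 of 11 cows and lower in 5, with a mean difference of 0.28 (SD 1.08, exact permutation p = 0.397). Whether TLR2 passed therefore depended on the scaling. These 5 tests were made on each of 2 scales and repeated without cows 22PS and 26C, and their p-values are not adjusted.

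**Figure D2:**
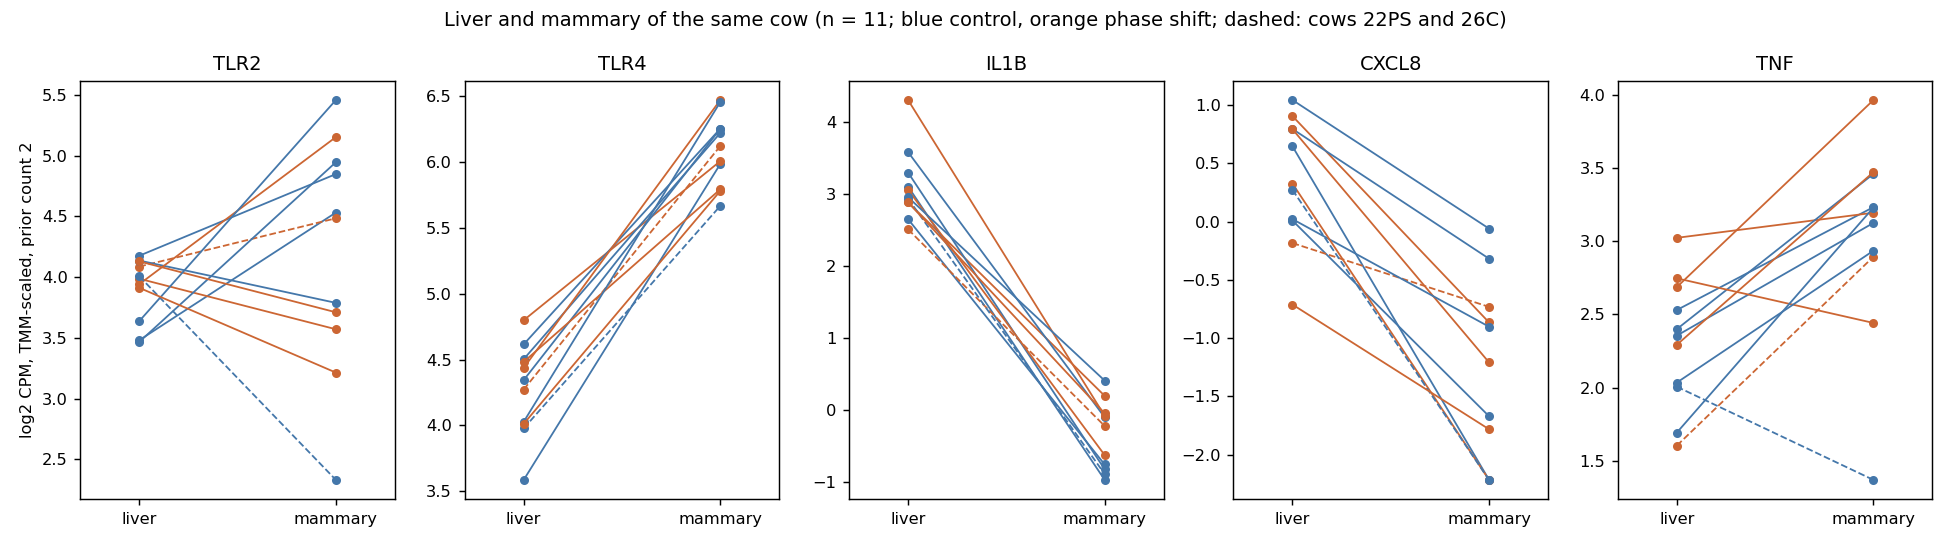
TMM-scaled log2 CPM (prior count 2) in liver and mammary of each of 11 cows, joined by a line, for the 5 genes. Lines for TLR4 rise and lines for IL1B and CXCL8 fall in 11 of 11 cows, whereas TLR2 lines run both ways, 6 upward and 5 downward.

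The comparison of phase shift with control cows asks whether disruption of circadian timing altered these genes. In liver, TLR2, TLR4, IL1B and TNF passed the low-count filter and CXCL8 did not. The 4 fitted log2 fold changes, phase shift over control, were between 0.21 and 0.35, where the quartiles over all 13752 genes tested were -0.11 and 0.14 around a median of 0.013. None was called: 0% of all genes tested passed the edgeR threshold in liver, and 813 had an unadjusted p under 0.05. DESeq2 called 16 genes in liver and gave no adjusted p for any of these 5, and limma called 0. No adjusted p of the 4 genes was below 0.681 under any of the alternative settings that gave one.

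TLR2 in liver had a log2 fold change of 0.24 (SE 0.15, edgeR adjusted p = 0.741), and its 95% confidence interval ran from a 0.939-fold to a 1.49-fold level. For TLR4 the values were 0.21 (SE 0.18, edgeR adjusted p = 0.789), with an interval of 0.883 to 1.51-fold. Both intervals, like those of IL1B and TNF given next, ended below a 2-fold level. IL1B had a log2 fold change of 0.32 (SE 0.29, edgeR adjusted p = 0.798), with an interval of 0.809 to 1.93-fold. TNF had 0.35 (SE 0.23, edgeR adjusted p = 0.741), with an interval of 0.908 to 1.80-fold.

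The liver values of IL1B and TNF under phase shifts were spread by individual cows. IL1B was 14.2 CPM in phase shift cow 24 and 11.3 CPM in phase shift cow 25, both above every control cow, whereas the other 4 phase shift cows lay at 3.69 to 5.77 CPM, and the library of cow 22 was the lowest of all 12. TNF in phase shift cows 19, 23 and 24 lay at 5.60, 4.61 and 4.53 CPM, above every control cow, and cow 22 was again the lowest of 12 at 1.90 CPM. An exact two-sided permutation test gave p = 0.240 for TNF in liver, and p = 0.0433 without the library of cow 22. The edgeR adjusted p for TNF without that library was 0.879. On CPM of all libraries 10 such unadjusted permutation tests were made. All were repeated on log2 CPM and, on CPM, without the libraries that stand apart. For genes left out by the low-count filter they were also repeated with each library left out.

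Mean CXCL8 in liver was 0.879 CPM under control and 0.661 CPM under phase shift conditions (exact two-sided permutation p = 0.314). The phase shift cows with the lowest CXCL8, cows 25 and 26 at 0.257 and 0.260 CPM and cow 22 at 0.447 CPM, lay below every control cow, and the other 3 lay within the control range. The values of cows 25 and 22 rest on 3 and 4 counts. Phase shift cow 24, with the highest IL1B, had CXCL8 at 0.754 CPM, within the control range.

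**Figure D3:**
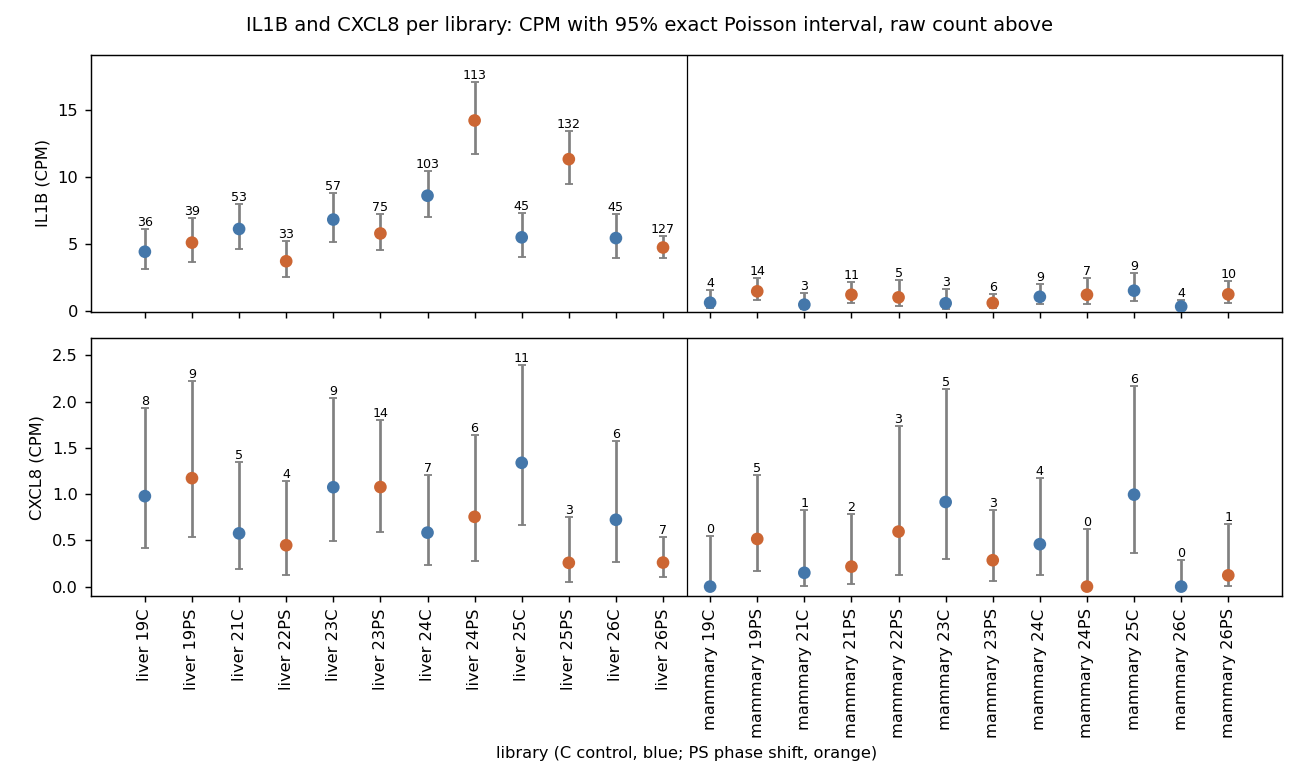
IL1B and CXCL8 in each of the 24 libraries, in CPM with the 95% exact Poisson interval of the count, and the raw count above each bar. IL1B intervals of phase shift cows 24 and 25 lie above those of most other livers, while CXCL8 counts never exceed 14 and their intervals overlap widely.

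In mammary, TLR2, TLR4 and TNF passed the low-count filter, and IL1B and CXCL8 did not. None of the 3 was called, and 0% of the 15547 genes tested passed the edgeR threshold, with 739 at an unadjusted p under 0.05; DESeq2 and limma also called 0. TLR2 had a log2 fold change of -0.51 (SE 0.47, edgeR adjusted p = 0.941), and its 95% confidence interval ran from 0.344-fold to 1.43-fold. TLR4 had -0.14 (SE 0.16, edgeR adjusted p = 0.950), with a narrower interval of 0.717 to 1.15-fold. TNF had 0.16 (SE 0.36, edgeR adjusted p = 0.983), with an interval of 0.653 to 1.91-fold.

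The TLR2 estimate in mammary moved with the libraries that stand apart and with single cows. It lay between -0.86 and -0.26 when each library was left out in turn, with the lowest edgeR adjusted p at 0.641. Without the 2 mammary libraries that stand apart, TLR2 was -0.61 (edgeR adjusted p = 0.908) and TLR4 -0.18 (edgeR adjusted p = 0.914). The TNF estimate turned sign, to -0.071 without phase shift cow 24 and to -0.021 without control cow 26.

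Mean IL1B in mammary was 0.736 CPM under control and 1.10 CPM under phase shift conditions, with the SDs given above (exact two-sided permutation p = 0.136). All phase shift values lay within the control range. With each library left out in turn, the permutation p ran from 0.0238 (without control cow 25) to 0.240 (without control cow 26). Without phase shift cow 23 it was 0.0498, and without the libraries that stand apart it was 0.317. All of these are exact and unadjusted. Control cow 25 had the highest control value and phase shift cow 23 the lowest phase shift value, so leaving out either widens the difference. In the edgeR fit without the low-count filter the log2 fold change was 0.52 (SE 0.45, adjusted p = 0.853). CXCL8 in mammary had 0.419 CPM in control and 0.289 CPM in phase shift cows (exact two-sided permutation p = 0.530), a difference not detectable at these counts.

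**Figure D4:**
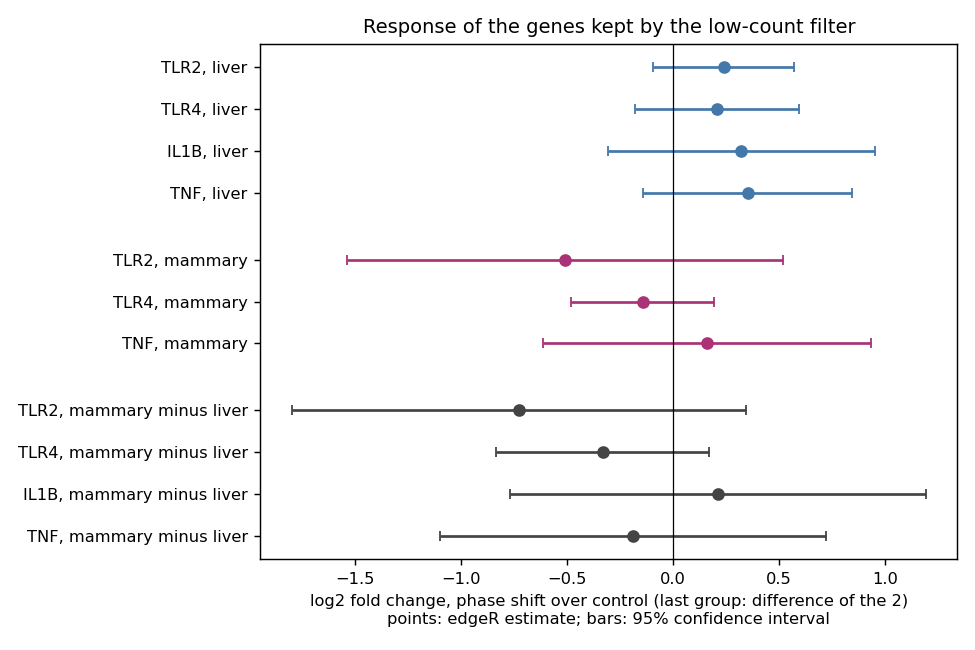
Log2 fold change of phase shift over control with its 95% confidence interval from edgeR, for the genes kept by the low-count filter in liver, in mammary, and as the difference of the responses. All 11 intervals include 0, and the widest are those of TLR2 in mammary and of the TLR2 and IL1B differences.

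Whether the tissues responded differently was tested as an interaction over all 24 libraries, in which 0% of 16656 genes passed, with 1111 at an unadjusted p under 0.05 (DESeq2 called 1 gene and limma 0). TLR2 had a difference of responses, mammary minus liver, of -0.72 on the log2 scale (SE 0.52, edgeR adjusted p = 0.810). For TLR4 it was -0.33 (SE 0.24, edgeR adjusted p = 0.814). IL1B, at 0.21 (SE 0.47, edgeR adjusted p = 0.964), and TNF, at -0.19 (SE 0.44, edgeR adjusted p = 0.968), had wide intervals, of 0.587 to 2.29-fold and 0.467 to 1.65-fold. Without the 3 libraries that stand apart the IL1B value turned to -0.14. Here too IL1B passed the low-count filter only through its liver counts.

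None of the 5 genes separated the treatment groups completely in either tissue. Groups that did not overlap in CPM were seen for 0.349% of the genes tested in liver and 0.167% in mammary.

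The libraries that stand apart were low for TNF in both tissues, and the mammary ones also for the receptors. These libraries differ from the rest over all genes. The share of all genes that were lowest in them was not counted. The ranks given here and in the next paragraphs are therefore not known to be particular to these genes. In liver of phase shift cow 22 the 2 receptors were in the middle of the range, TLR2 at 11.3 CPM against a median of 11.1 in the other 11 livers and TLR4 at 12.9 CPM against 14.7. IL1B (3.69 against 5.77 CPM) and TNF (1.90 against 3.58 CPM) were the lowest of the 12 livers. None of the 5 genes was 4-fold from the median, a distance reached upward by 3.24% of the genes kept by the filter in that library, or 446 genes, and downward by 0.553%. TMM scaling left IL1B and TNF the lowest of 12, at -0.55 and -0.80 from the median on the log2 scale, with 3.56% of genes past 4-fold upward and 0.574% downward.

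In mammary of control cow 26 the receptors and TNF were at their lowest. TLR2 stood at 4.52 CPM (59 counts), against a median of 35.0 CPM and a lowest value of 14.6 CPM in the other 10 mammary libraries. TNF stood at 2.22 CPM (29 counts) against a median of 13.3 and a lowest of 6.84 CPM. TLR4 stood at 47.4 CPM against a median of 108 and a lowest of 88.2 CPM. On log2 CPM the distances from the median were -2.89 for TLR2, -2.48 for TNF and -1.18 for TLR4, so TLR2 and TNF were past 4-fold, a distance reached downward by 9.66% of genes in this library and upward by 2.55%. IL1B, with 4 counts, and CXCL8, with 0, were also at the low end of their counts. These distances shrank with TMM scaling, to -2.18 for TLR2, -1.84 for TNF and -0.50 for TLR4, each still the lowest of 12. Only TLR2 of these 3 was then past 4-fold, where 4.23% of genes were lower by that much and 4.84% higher.

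Phase shift cow 21 ranked next to last in CPM for TLR2, TLR4 and TNF in mammary. TLR2 stood at 11.3 CPM, TLR4 at 61.1 CPM and TNF at 5.83 CPM, each below all 10 libraries that do not stand apart. The log2 distances from the median were -1.61, -0.82 and -1.16, none past 4-fold, where 3.60% of genes were at least that much lower and 2.01% at least that much higher. IL1B, at 11 counts or 1.19 CPM, was not low in this library, against a median of 1.01 CPM in the 10. With TMM scaling the distances were -1.15 for TLR2, -0.41 for TLR4 and -0.79 for TNF, and TLR2 was no longer below all 10, since phase shift cow 26 was lower (3.00% of genes were past 4-fold upward and 1.91% downward). The share of counts in the 10 most abundant genes was also highest in these 2 mammary libraries.

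Variation between libraries was set beside that expected from counting alone, and the excess was not tested. For each set of libraries given here and in the next paragraph, the observed variation was the larger. In proportion the excess was smallest for IL1B in mammary and CXCL8 in liver. Over the 10 mammary libraries other than 21PS and 26C, TLR4 had a coefficient of variation of 10.6%, where counting alone would give 3.71%. TLR2 in the same libraries had 43.2% against 6.56% from counting, and TNF 34.6% against 10.3%. TLR4 was thus the steadiest of the 3 across glands, and TLR2 ranged from 14.6 to 58.5 CPM.

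In liver the order was different. TLR2 varied by 17.4% (9.86% from counting), TLR4 by 22.5% (8.78%), TNF by 30.1% (17.3%) and IL1B by 45.8% (12.6%), over 12 libraries. For CXCL8 in liver, the 46.6% observed compares with 39.0% from counting, and for IL1B in mammary the 44.3% observed compares with 39.1%. CXCL8 in mammary varied by 97.6%, against 65.8% from counting.

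The genes were also compared with each other across libraries on log2 CPM from library totals, over the 9 pairs in which both had at least 10 counts in 6 or more of the 12 libraries of a tissue. Over all 12 mammary libraries TLR2 and TLR4 passed, with r = 0.896 (adjusted permutation p = 0.00144) and rho = 0.804 (adjusted permutation p = 0.0229), while TLR2 with TNF (r = 0.507) and TLR4 with TNF (r = 0.689) did not pass (adjusted permutation p = 0.215 and 0.103). The 2 mammary libraries that stand apart lie far from the rest in these plots. Over the other 10, TLR2 and TLR4 had a Pearson r of 0.690 (permutation p = 0.0304) and a Spearman rho of 0.661 (permutation p = 0.0435). TLR2 and TNF had r = -0.675 (permutation p = 0.0268) and rho = -0.758 (permutation p = 0.0153). TLR4 and TNF had r = -0.643 (permutation p = 0.0418) and rho = -0.515 (permutation p = 0.132).

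Over these 10 libraries none of the 3 passed Benjamini-Hochberg adjustment over the 9 pairs, at an adjusted permutation p of 0.125 for each r and of 0.138 to 0.201 for rho. Leaving out the further 2 libraries farthest from the median of the first gene gave r = 0.482 for TLR2 with TLR4, -0.743 for TLR2 with TNF and -0.237 for TLR4 with TNF, so the last rests on those libraries. The sign of both values with TNF thus differed with and without the 2 libraries that stand apart. On TMM-scaled log2 CPM, tried after seeing the data, r of TLR2 with TLR4 passed over 12 libraries (r = 0.880, adjusted permutation p = 0.00261) and over 10 (r = 0.824, adjusted permutation p = 0.0394). Spearman's rho on that scale was 0.874 over 12 (permutation p = 0.00058) and 0.794 over 10 (permutation p = 0.00847). These p-values of rho were not adjusted, so the pass over 10 libraries is known for r alone. The pairs with TNF then had r = 0.309 for TLR2 and 0.174 for TLR4 over 12 libraries, and -0.634 and -0.689 over 10 (adjusted permutation p = 0.134 and 0.115).

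Among the 10 libraries, phase shift cow 24 had the highest mammary TNF, 24.9 CPM, with TLR2 at 20.8 CPM. Phase shift cow 23 had TLR2 at 46.4 CPM and, at 6.84 CPM, the lowest TNF of the 10. Control cow 25 had the highest TLR2, 58.5 CPM, with TNF at 12.3 CPM, near the median. In liver TLR2 with TNF gave r = 0.235 (permutation p = 0.463) and rho = 0.168 (permutation p = 0.604) over 12 libraries, and r of 0.372 without the 2 libraries farthest from the median. The 6 liver pairs had r between 0.235 and 0.549, and none passed, with the lowest adjusted permutation p at 0.198.

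**Figure D5:**
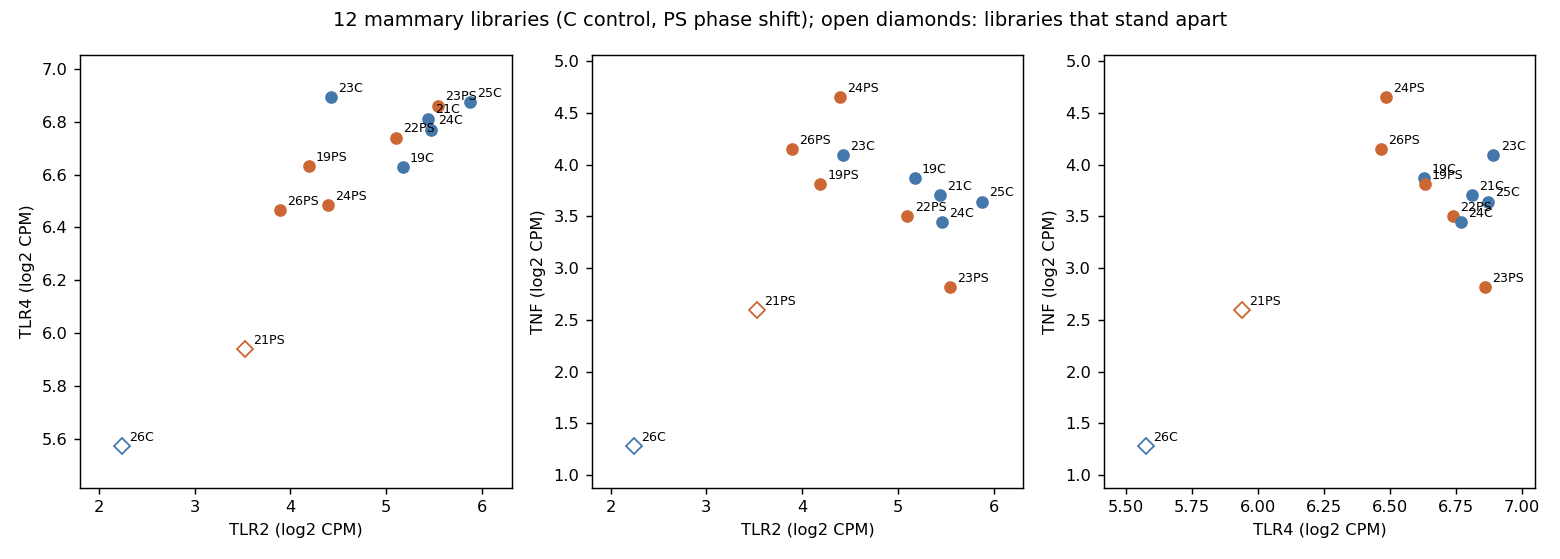
Log2 CPM (prior count 2, library totals) of TLR2, TLR4 and TNF plotted against each other in the 12 mammary libraries, labelled by cow. The open diamonds, 21PS and 26C, are low for all 3 genes, while among the other 10 libraries TNF has r = -0.675 with TLR2 and -0.643 with TLR4, neither of which passed adjustment.

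The genes whose pattern was most like that of the receptors were sought by Spearman's rho of log2 CPM, centred within each tissue, over the 24 libraries and 15251 genes, as a description. For TLR2 the nearest was ENSBTAG00000021102, with rho of 0.876 (0.559 within liver and 0.888 within mammary), and 11 genes reached 0.8. For TLR4 the nearest was ENSBTAG00000038173, with rho of 0.829 (0.819 within liver and 0.748 within mammary), the only gene to reach 0.8. TNF had 17 genes at 0.8 or more and IL1B had 0. The points share their libraries, depth and the 3 libraries that stand apart. The tables used here do not pair these identifiers with names.

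Reads of neighbouring genes may enter some of these values. In the RefSeq annotation of assembly ARS-UCD2.0, which is not the build of the counts, TLR2 overlaps RNF175 and TNF overlaps the locus LOC100847561, while TLR4, IL1B and CXCL8 overlap no other gene. No source used here gives the strand setting of the counting, and reads from overlapping genes may not be separated. TNF lies between LTB and LTA, genes of the same ligand family. IL1B lies between the locus LOC101904177 and IL37, and IL1A is next beyond that locus. IL1A and IL37 are of the interleukin-1 family.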

How the data were processed

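Liver and mammary biopsies (24 libraries from 13 cow numbers, of which 7 are phase shift cows where the series text has 6) were sequenced as paired reads after ribosomal RNA depletion, per the labels' protocols. Per the submitters' processing notes, the authors used Trimmomatic 0.36, STAR 2.5.2b with build ARS-UCD1.2, featureCounts of Subread 1.5.2, and DESeq2. The sources used here give neither the annotation release nor the strand setting. Library totals, given in the report, set the precision of low counts. The authors deposited raw read counts per Ensembl gene ID, and every value here comes from these; their normalized and regularized log tables were not used.

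The members and lists were chosen with earlier results of these data known. The named genes are the 5 members, plus by rule the nearest gene in pattern to TLR2 and to TLR4. A RefSeq table (ARS-UCD2.0, 37063 genes) lists 0 Ensembl IDs, so the further pathway genes and cell markers planned are not analysed here, and no sequences are shown. Whole tables were fitted with edgeR 4.0.16 (R 4.3.3; quasi-likelihood F test, robust, TMM, filterByExpr with minimum count 10 and minimum total 15) and adjusted by Benjamini-Hochberg at 0.05. The code was also run on simulated counts with the same spread for every gene and larger changes than those estimated here for phase shift. That run does not measure what could be detected for these genes. DESeq2 1.42.0, limma 3.58.1 voom and other settings were alternatives. Log2 CPM used a prior count of 2. The groups of 6 allow 924 treatment assignments (smallest exact p 0.00216), and correlations used 100000 permutations (scipy 1.17.1). Liver and mammary libraries were paired by the cow number in the labels. The correlation of their deviations from the group means was 0.020 to 0.154 over 11 cows. Of these 11 liver libraries, 7 correlated best with the mammary library of their own cow.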

Additional observations from a re-analysis of the deposited data

Results flagged for a closer look

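Mammary TLR4 in control cow 26 was 47.4 CPM, where the nearest of the other 5 control cows had 98.7 CPM. The gap was 0.721 of the range of the group, past Dixon's 95% critical value of 0.625 for 6 samples. This was the only 1 of 20 groups of 6 CPM values past it, where about 1 would be by chance. On log2 CPM, tried after seeing the data, TNF of this library was past it too, with a gap of 0.769 of the range. With TMM scaling, also tried afterwards, TLR4 was not past it, with a gap of 0.403, and TNF was, at 0.749.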

How the results depend on the processing

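Of 589 alternative values, 570 kept their direction and their side of the threshold, or a count within 1.5 times. In liver the number of genes called, 0 in the edgeR test, was 16 with DESeq2, 2 with the shared number as a replicate block and 0 to 1 when each library was left out in turn. DESeq2 called 1 gene for the interaction. DESeq2 gave no adjusted p for any of the 5 genes in liver. TLR2 between tissues was called with scaling by library size alone (1.41), also without liver 22PS and mammary 21PS and 26C (0.55), and ran from 0.22 to 0.51 with each library left out. Within cows, the TLR2 difference was no longer past the threshold on TMM-scaled log2 CPM (0.28, and 0.48 without cows 22PS and 26C), and these alternatives were chosen after seeing the data. With each library left out, mammary IL1B differed by 0.277 to 0.514 CPM and the mammary TNF fold change ran from -0.071 to 0.28. The IL1B interaction reversed to -0.14 without the libraries that stand apart, and the mammary correlations of TNF with TLR2 and TLR4 reversed to -0.675 and -0.643 without the 2 libraries farthest from the median (-0.634 and -0.689 with TMM scaling and without 21PS and 26C; 0.174 for TLR4 with TNF with TMM scaling over all 12). The cause was not tested. Control and phase shift cows share only a number: deviations of same-numbered libraries correlated at -0.085 to 0.101 in 5 liver pairs and -0.380 to 0.161 in 5 mammary pairs, and 3 and 0 control libraries correlated best with their own number. With the shared number as a replicate block, the liver log2 fold changes were 0.29 for TLR2, 0.27 for TLR4, 0.36 for IL1B and 0.51 for TNF (edgeR adjusted p = 0.986 each). The cow as a block changed no call of TLR2, TLR4, IL1B or TNF, and was not fitted for CXCL8. The counts of CXCL8, and of IL1B in mammary, limit what could be seen.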

Other observations

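Across the 11 cows with both tissues, liver and mammary levels (log2 CPM) were compared for TLR2, TLR4, IL1B and TNF, chosen after seeing the data. Pearson's r was -0.350 for TLR2 (permutation p = 0.299), 0.326 for TLR4 (permutation p = 0.333), 0.113 for IL1B (permutation p = 0.756) and 0.252 for TNF (permutation p = 0.468). Spearman's rho was -0.373, 0.464, -0.118 and 0.382 (permutation p = 0.260, 0.157, 0.734 and 0.249), and the adjusted permutation p for r was 0.624 to 0.756. Without the 2 cows farthest from the median liver level, r was -0.201, 0.431, -0.380 and 0.395. No relation between the tissues of a cow was detected for these genes over 11 cows.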
